A study of Homo sapiens with 15 samples.

Results

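The regions described here were stretches of the HCT116 genome that were called partially methylated domains (PMDs) in the Baseline methylomes of 4 cell populations (Cl.3, Cl.6, R1 and R2) and were not called PMDs in the Baseline methylome of the clone Cl.9. Base pairs that met this rule on the 22 autosomes were joined into pieces, and the 7341 pieces of at least 10 kb were the members. They covered 408 Mb, and were 7341 of the 31320 segments of at least 10 kb into which the 5 Baseline domain lists divided the autosomes. Of the 904 Mb that were PMD in all 4 of the other populations, 46.7% was not PMD in Cl.9. The wording "partially methylated except in Cl.9" did not describe a methylated state: in Cl.9 the members were at a lower methylation level than in the other populations (38.2% against 43.1% to 44.7% at Baseline), so they are called here by the rule, as domains that lacked a PMD call in Cl.9.

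HCT116 is a human colorectal carcinoma cell line. Whole-genome bisulfite sequencing (WGBS) was carried out on cells with a stably integrated hairpin (shRNA), switched on by doxycycline, that targets UHRF1 (clonally expanded Cl.3, Cl.6 and Cl.9) or DNMT1 (bulk populations R1 and R2), at 3 stages, giving 15 libraries in 6 groups of 3 or 2. Baseline cells were grown for 14 days without doxycycline, Knockdown cells for 14 days with 10 ng/mL doxycycline, and Recovery cells for 14 days with and then 14 days without it. Recovery was therefore sampled at day 28 and had no untreated library of the same day. Each shUHRF1 population was a clone and each shDNMT1 population was bulk, so the shRNA and the way the cells were grown cannot be told apart. Cl.9 was 1 clone, the line into which the study put UHRF1 transgenes because UHRF1 expression and methylation fell most in it, and it was sequenced more deeply than the others, with its own count table. The clone, its depth and its table cannot be told apart. Autosomal reads at CpGs numbered 309268341 to 577680690 per library, and the median member held 3088 to 5757 reads in each library. Intervals given below cover counting error only.

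DNA methylation in mammals sits mostly at CpG dinucleotides and is copied after replication by DNMT1, which UHRF1 recruits to hemimethylated sites. PMDs are long, late-replicating, gene-poor stretches in which methylation is incompletely copied, so that it declines with cell divisions, most of all at CpGs with few neighbours. Highly methylated domains (HMDs) make up most of the rest of the genome, and unmethylated regions (UMRs) and low-methylated regions (LMRs) are stretches called by their low methylation. The domain lists place UMRs and LMRs inside PMDs as well as outside them. The methylation level (mC) of a region was the percentage of methylated reads among those covering its CpGs.

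CpGs of 2 members are shown to make the measurement concrete. The first CpG lies in the longest member (chr18:28349264-30653413 of hg38) and the other 2 in the longest member that was mostly UMR in Cl.9 (chr11:20892079-21734997, chosen after its values were seen). The CpGs without neighbours (solo-WCGW, with A or T on both sides and no other CpG within 35 bp) and the high-density CpG (another CpG within 10 bp) were those nearest the middle of the member that no library covered with fewer than 5 reads. The capitals mark the CpG measured, on the plus strand of hg38.
chr18:29501258-29501286, solo-WCGW: gggattacaggctCGacctaccatgccca
chr11:21314647-21314675, solo-WCGW: catgcctggagtaCGaaaagcagaagaag
chr11:21318521-21318549, high density: ttccggccccactCGagaactccttcttt
At the solo-WCGW CpG of chromosome 18, 22 of 22 reads were methylated in Cl.9 at Baseline, 12 of 21 at Knockdown and 20 of 24 at Recovery. In R1 the same CpG had 10 of 16, 4 of 21 and 7 of 17 methylated reads, and in Cl.3 it had 11 of 17, 3 of 10 and 8 of 19. At the solo-WCGW CpG of chromosome 11, whose nearest CpG was 164 bp away, Cl.9 had 0 of 28 methylated reads at Baseline, which allows an mC of up to 10.7%. R1 had 3 of 24 reads methylated there at Baseline, 0 of 20 at Knockdown (up to 15.0%) and 4 of 30 at Recovery. The high-density CpG of chromosome 11 was methylated in 17 of 24 reads of Cl.9 at Baseline, 3 of 25 at Knockdown and 8 of 31 at Recovery. In Cl.6 the last CpG had 17 of 19, 7 of 14 and 6 of 8 methylated reads, and the solo-WCGW CpG of chromosome 11 had 0 of 11 at Baseline (up to 27.3%). At Baseline these 2 CpGs of 1 member thus differed widely in Cl.9 and in Cl.6.

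The first question was what the member base pairs were called in Cl.9 in place of PMD. In the Cl.9 Baseline list 55.0% of the member length was UMR, 17.3% LMR and 7.84% HMD, and 19.8% was in no class. The other 4 Baseline lists also held UMRs over 36.6% to 41.7% of the member length and LMRs over 24.0% to 25.8%, but inside PMDs. Over the whole of the autosomes, 24.6% of the UMR length of Cl.9 at Baseline lay inside PMDs, against 74.6% in Cl.3 and 91.5% to 92.2% in Cl.6, R1 and R2. How much of the same length was UMR or LMR both in Cl.9 and in the other lists was not measured. Whether the Cl.9 list was called with the same settings as the others is not given in the sources used here, so a difference in calling and a difference in the cells cannot be told apart in the membership. The UMR parts were not free of methylation: their mC in Cl.9 at Baseline was 21.2%, against 29.1% to 30.7% for the same CpGs in the other populations. The LMR parts were at 20.6% in Cl.9 and 29.7% to 31.0% in the others. The parts in no class differed least, with 65.5% in Cl.9 and 66.7% to 67.05% in the others. The HMD parts went the other way, with 81.6% in Cl.9 and 70.7% to 74.8% in the others. All of these are Baseline values, which the rule used, and are given as a description.

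By the class that held most of its length in the Cl.9 Baseline list, 3711 members were mostly UMR (281 Mb), 817 mostly HMD (30.4 Mb) and 329 mostly LMR (8.03 Mb), while 2484 had no such majority (88.7 Mb). In the Knockdown lists the share of member length called PMD was 12.9% in Cl.3, 12.8% in Cl.6, 10.4% in Cl.9, 1.33% in R1 and 1.15% in R2. At that stage UMRs covered 68.0% to 96.4% of the member length in all 5 populations, so the class that Cl.9 had at Baseline was then the usual one. At Recovery the share called PMD was 18.3% in Cl.3, 17.2% in Cl.6 and 10.3% in Cl.9, against 99.8% in both R1 and R2. In segments that were PMD in all 5 populations, the clones kept more PMD calls. There the Knockdown shares were 58.1% in Cl.3, 56.6% in Cl.6, 47.2% in Cl.9, 2.35% in R1 and 1.83% in R2. The Recovery shares there were 70.6%, 70.0%, 52.3%, 99.9% and 99.9% in the same order. These lists came from libraries that the rule did not use, with 1 library per population and stage, and no test was made of the shares.

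**Figure D1:**
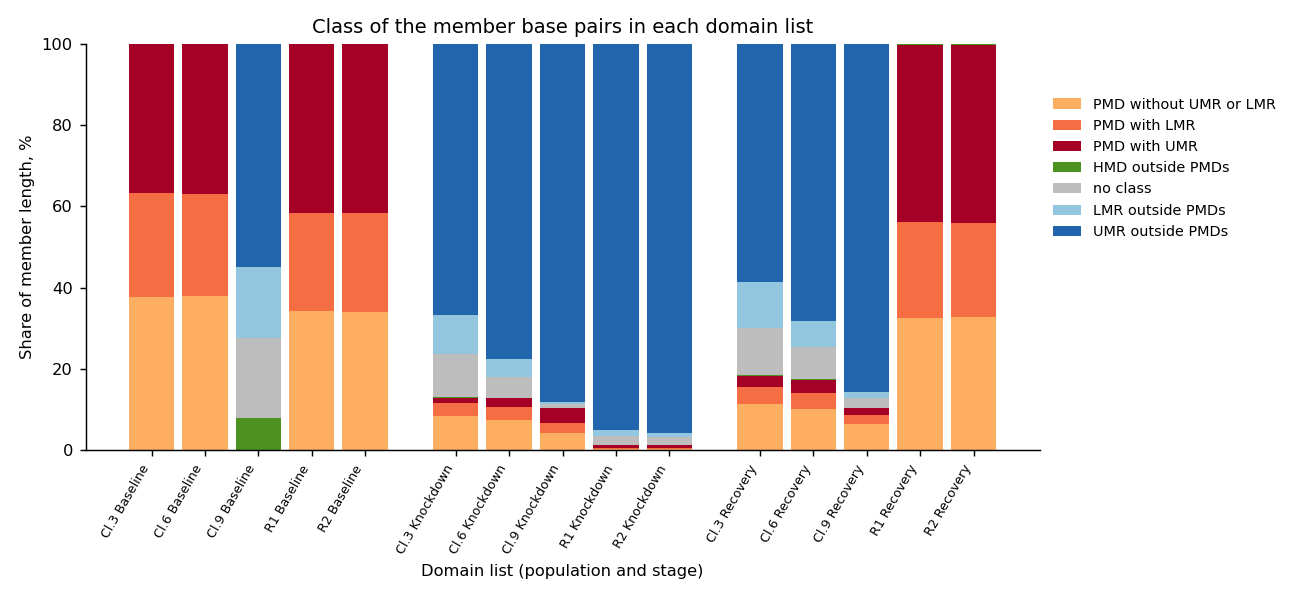
Stacked bars show, for each of the 15 domain lists, the share of the member length (y axis, percent) in PMDs (with a UMR, with an LMR or with neither), in HMDs, LMRs or UMRs outside PMDs, or in no class. The members are PMD throughout in 4 Baseline lists by the rule, mostly UMR outside PMDs at Knockdown in every population, and PMD again over 99.8% of their length at Recovery in R1 and R2 only.

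At the level of reads, the members were less methylated than PMDs shared by all 5 populations, and Cl.9 had the lowest mC of the 5 at every stage. This rank was not particular to the members: in the PMDs shared by all 5 populations Cl.9 was also lowest, at 51.8%, 23.3% and 28.1%. At Baseline the member mC was 43.4% in Cl.3, 44.7% in Cl.6, 38.2% in Cl.9, 43.1% in R1 and 43.1% in R2. Cl.9 differed from the mean of the others by -5.37 points, and their SD was 0.762 points (n = 4), and this difference used the rule's libraries. At Knockdown the values were 32.5%, 27.4%, 17.3%, 21.4% and 21.1% in the same order, and Cl.9 differed from the mean of the others by -8.31 points (SD of the others 5.44, n = 4, exact two-sided permutation p = 0.4). At Recovery they were 35.1%, 31.8%, 20.7%, 42.6% and 42.7%, and the difference was -17.3 points (SD of the others 5.46, n = 4, exact permutation p = 0.2). With 1 clone against 4 populations 0.2 is the smallest p the test allows. Over the base pairs that were HMD in Cl.9 the difference was of the other sign at Baseline (10.6 points) and near 0 at Knockdown (0.902 points), and at Recovery it was -7.47 points. Without CpGs in UMRs or LMRs of any Baseline list it was -1.29 points at Baseline, -9.29 points at Knockdown and -22.1 points at Recovery. The lists that chose these CpGs included the Cl.9 Baseline list, so the small Baseline value follows in part from that choice. The others pool shUHRF1 clones with shDNMT1 bulk populations, so at Knockdown and Recovery their mean and SD also hold the difference between those groups. Against the other shUHRF1 clones alone, a comparison added after seeing the data, Cl.9 differed by -5.84 points at Baseline, -12.7 points at Knockdown and -12.8 points at Recovery. Beside the clones the deficit was thus about the same at both later stages. Member mC minus the autosomal mC of the same library was -33.6 points in Cl.9 at Baseline, below the others (-31.9 to -30.7). At Knockdown it was -25.6 points in Cl.9, inside the range of the others (-30.1 to -18.4). At Recovery it was -32.6 points in Cl.9, again inside the range of the others (-34.7 to -30.2).

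**Figure D2:**
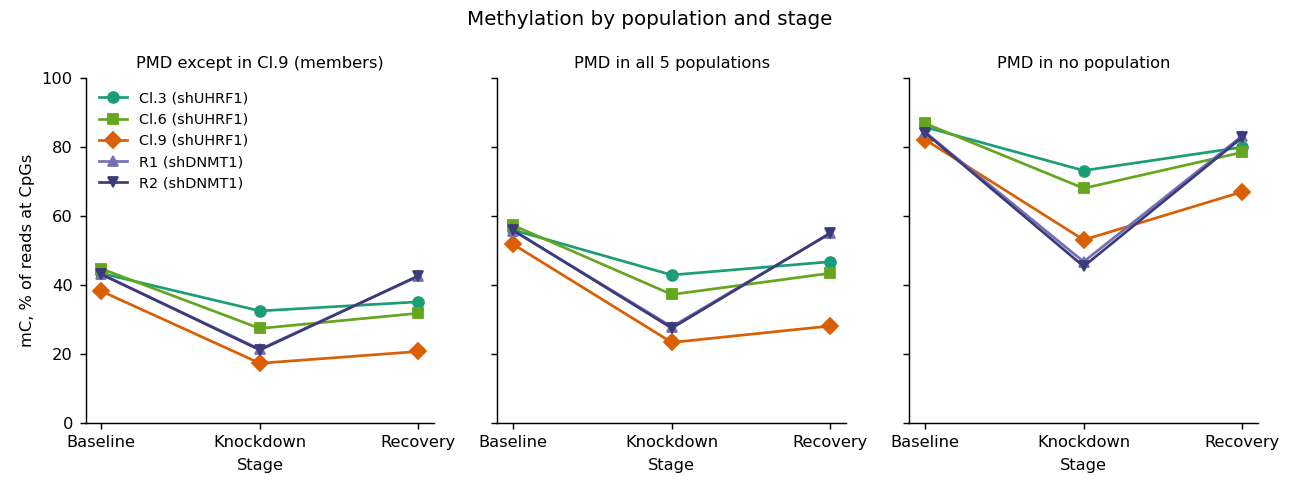
Lines join the mC (y axis, percent of reads at CpGs) of each population at Baseline, Knockdown and Recovery, for the members, for segments that were PMD in all 5 populations and for segments that were PMD in none. In the members Cl.9 is lowest at each stage, at 38.2%, 17.3% and 20.7%, and R1 and R2 return to 42.6% and 42.7% at Recovery. In segments that were PMD in all 5 populations Cl.9 is also lowest at each stage, at 51.8%, 23.3% and 28.1%.

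The 7920 segments that were PMD in all 5 populations were more methylated than the members in each population, with Baseline levels of 55.8% in R1 and 51.8% in Cl.9. The ratio of member mC to the mC of these shared PMDs was 0.738 in Cl.9 and 0.772 to 0.780 in the others at Baseline. At Recovery the ratio was 0.737 in Cl.9 and 0.732 to 0.775 in the others, so that Cl.9 lay within their range (difference -0.0212, exact permutation p = 0.8). On a scale set within each library to 0 at the shared PMDs and 1 at segments that were PMD in no population, the members were below 0 in every library. The scaled level of Cl.9 was -0.447 at Baseline, inside the range of -0.450 to -0.421 of the others. It was -0.203 against -0.355 to -0.320 at Knockdown and -0.190 against -0.447 to -0.331 at Recovery. The differences from the mean of the others, 0.138 at Knockdown and 0.202 at Recovery, had an exact permutation p of 0.2, which a single clone against 4 populations cannot go below, so the test gives them no support.

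Piece by piece, Cl.9 was below all 4 of the other populations in 5899 of the 7291 members that passed a minimum of 50 reads and 5 CpGs per library at Baseline (80.9%), where 75.7% of all 30524 segments tested were below. At Knockdown this held for 6322 members (86.7%) against 62.9% of all segments. At Recovery it held for 6967 members (95.6%) against 96% of all segments, a share near the background. Cl.9 was above all 4 in 476 members at Baseline (6.53%, where 5.37% of all segments were above), in 30 at Knockdown (0.411%, with 0.315% of all segments) and in 25 at Recovery (0.343%, with 0.233% of all segments). Compared only with Cl.3 and Cl.6, Cl.9 was lower in 6028 members at Baseline (82.7%) against 80.7% of all segments, and higher in 625 (8.57%) against 7.41%. It was lower in 7104 members at Knockdown (97.4%) against 97.8% of all segments, and in 6984 at Recovery (95.8%) against 96.2%, where it was higher in 79 (1.08%) against 0.711%. Beside the clones, the members' shares were thus near those of all segments.

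**Figure D3:**
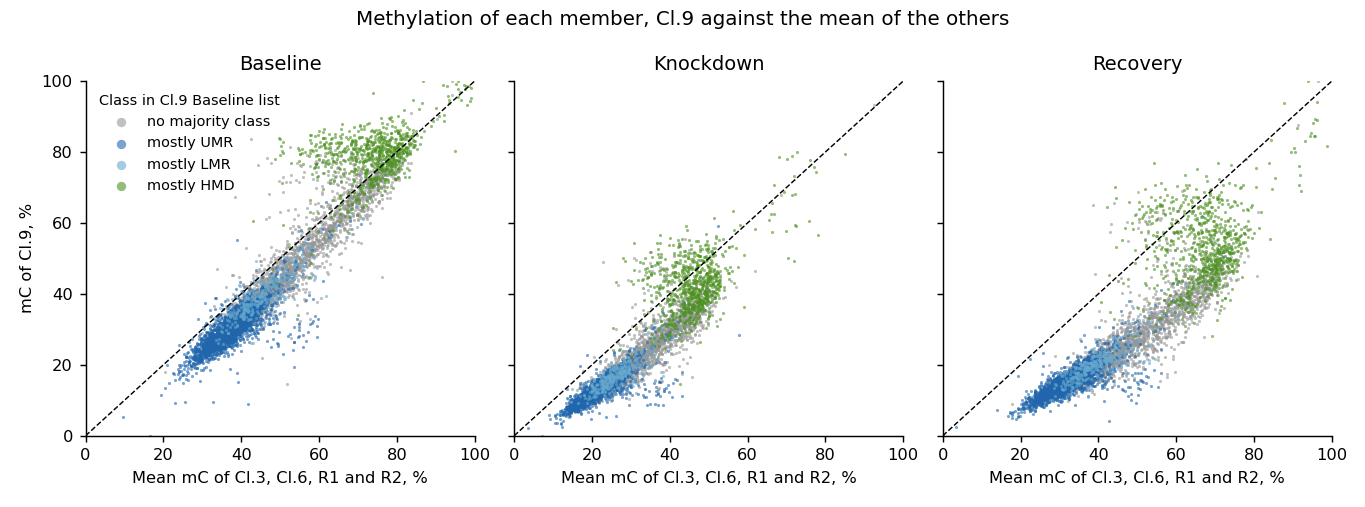
Each point is 1 member, with its mean mC in Cl.3, Cl.6, R1 and R2 on the x axis and its mC in Cl.9 on the y axis (percent), at the 3 stages, coloured by the class holding most of its length in the Cl.9 Baseline list. Most members that were mostly UMR lie below the dashed line of equal mC (at Recovery below all 4 populations in 3703 of 3711, where 96% of all segments were), and members that were mostly HMD lie around 79.96% in Cl.9 at Baseline over a wide range of the other populations.

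The members that were mostly UMR in Cl.9 had a pooled mC of 29.6% in Cl.9 at Baseline, 12.7% at Knockdown and 15.0% at Recovery. In Cl.3 the same members had 37.3%, 27.2% and 29.3%, and in R1 36.6%, 18.0% and 36.1%. At Recovery Cl.9 was below all 4 of the other populations in 3703 of these 3711 members. The members that were mostly HMD had higher levels in all 5 populations. Their pooled mC in Cl.9 was 79.96% at Baseline, 44.04% at Knockdown and 55.7% at Recovery, against 68.8%, 54.0% and 59.1% in Cl.3, 73.1%, 51.3% and 60.3% in Cl.6, 70.6%, 35.9% and 69.5% in R1, and 70.7%, 35.3% and 69.5% in R2. Cl.9 differed from the mean of the others by 9.14 points at Baseline, by -0.0918 points at Knockdown (exact permutation p = 1) and by -8.84 points at Recovery (exact permutation p = 0.2). Cl.9 was above all 4 in 352 of the 817 at Baseline (43.1%, against 5.37% of all segments), in 26 at Knockdown (3.18%, against 0.315%) and in 20 at Recovery (2.45%, against 0.233%). It was below all 4 in 149 (18.2%, against 75.7%), 184 (22.5%, against 62.9%) and 537 (65.7%, against 96%). The median difference over single members was 3.29 points at Baseline, -5.27 points at Knockdown and -16.3 points at Recovery, beside -7.28, -8.33 and -16.4 points in the members that were mostly UMR. At Recovery both sets were thus mostly lowest in Cl.9. The class was read from the Cl.9 Baseline library itself, and the study kept a stretch as HMD only above a minimum average mC, so the Baseline level and difference follow in part from how these members were set apart.

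When only base pairs called HMD in the Cl.9 Baseline list were kept, 848 pieces of at least 10 kb remained (28.1 Mb). Of their length 98.9% was called PMD in Cl.9 at Knockdown and 90.1% at Recovery, so that most of the length that was HMD in Cl.9 alone was called PMD there after doxycycline. In Cl.3 84.8% of the same length was PMD at Knockdown and in Cl.6 93.0%, against 16.8% in R1 and 14.3% in R2. At Recovery the shares were 88.6% in Cl.3, 83.0% in Cl.6 and 98.7% in both R1 and R2, and that of Cl.9 lay within their range.

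The longest member was a stretch of 2.304 Mb on chromosome 18 (chr18:28349264-30653413) that overlapped no protein-coding gene. Its mC in Cl.9 was 85.0% at Baseline, 53.3% at Knockdown and 67.3% at Recovery. In Cl.3 it was 62.9%, 51.1% and 54.8%, in Cl.6 65.2%, 46.8% and 54.2%, in R1 64.1%, 35.2% and 63.2%, and in R2 64.1%, 34.95% and 63.1%. Cl.9 was the highest of the 5 at all 3 stages, with 1 library per population and stage. This member was mostly HMD in Cl.9, so its Baseline rank follows in part from the rule and the HMD call. The second longest (chr12:16640381-17845215, 1.205 Mb) also overlapped no protein-coding gene and was mostly HMD in Cl.9, with 83.2%, 49.3% and 63.4%. There Cl.6 was high as well, at 80.1% at Baseline, 63.7% at Knockdown and 74.8% at Recovery, above Cl.9 at the later stages, while R1 had 65.3% at Baseline, 34.4% at Knockdown and 64.3% at Recovery.

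The third (chr11:20892079-21734997, 0.8429 Mb) was mostly UMR in Cl.9 and overlapped 1 protein-coding gene, NELL1, which encodes a secreted protein of bone growth. Its mC was 25.4%, 9.94% and 12.004% in Cl.9, 32.9%, 23.8% and 25.0% in Cl.3, and 32.2%, 15.3% and 31.6% in R1, with Cl.9 lowest at each stage. NELL1 was the only protein-coding gene in the 10 longest members. Of these 10, 3 were mostly HMD in Cl.9 and 7 mostly UMR. The 7 had a Cl.9 mC of 25.4% to 31.9% at Baseline and differed from the mean of the others by -17.7 to -14.8 points at Recovery. One of them (chr18:41158136-41818614) had a read depth per CpG of 0.513 times the autosomal mean in Cl.9 at Baseline, against a median of 1.17 times in the others. Its mC of 27.7% in Cl.9 was near that of the other 6.

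Among the 1021 members of at least 100 kb, the median difference of Cl.9 from the mean of the others at Recovery was -16.4 points, with quartiles of -17.6 and -15.6 points, and Cl.9 was also below all 4 of the others in 96% of all segments. The 5 largest differences in favour of Cl.9 at Recovery were all in members that were mostly HMD there. The first was at chr2:167318054-167644507, a part of B3GALT1, which encodes a galactosyltransferase. It had 84.7%, 54.3% and 70.6% in Cl.9 at the 3 stages, 55.7%, 40.9% and 43.8% in Cl.3, 65.2%, 48.6% and 59.8% in Cl.6, and 59.0%, 28.7% and 57.6% in R1. The others were a stretch of chromosome 3 without protein-coding genes (chr3:81975415-82422794, 11.4 points above the mean of the others), a part of PRKG1, the cGMP-dependent protein kinase (chr10:51395038-51505488, 10.3 points), and stretches, also without protein-coding genes, of chromosome 2 (chr2:198673398-198779437, 9.22 points) and chromosome 14 (chr14:97589840-97914053, 8.77 points). In the last of these the clones were split at Baseline, with 83.8% in Cl.9, 42.1% in Cl.3 and 41.5% in Cl.6, and the bulk populations were in between at 57.4% and 57.5%.

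At the other end were the 5 members of at least 100 kb in which Cl.9 lay furthest below the mean of the others at Recovery. In 4 of them Cl.3 was the highest population at every stage, and in the remaining one (FYB2) Cl.6 was above Cl.3 at Baseline and Recovery. At chr7:10325366-10443938 Cl.3 had 79.9%, 68.9% and 74.2% at the 3 stages, Cl.6 59.8%, 46.1% and 55.4%, R1 49.5%, 28.7% and 46.7%, and Cl.9 27.8%, 11.3% and 13.7%. Cl.9 differed there from the mean of the others by -41.6 points at Recovery. The next was at chr1:56723786-56830994 in FYB2, a gene of an adaptor protein family of T cells, with -40.2 points. The remaining ones were at chr7:9732576-10141475 (-37.3 points), chr6:93029806-93134892 (-36.7 points) and chr6:93158735-93416647 (-36.3 points), the last of which overlaps EPHA7, an ephrin receptor gene. In the chromosome 6 stretch at EPHA7, Baseline mC was 73.6% in Cl.3, 55.4% in Cl.6, 30.6% in Cl.9, 45.0% in R1 and 45.2% in R2. These members were chosen by their Recovery values, which are therefore a description.

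How far methylation came back after doxycycline was the next comparison. At Knockdown the members had lost 25.2% of their Baseline mC in Cl.3, 38.7% in Cl.6 and 54.8% in Cl.9, while R1 lost 50.5% and R2 51.04%. From Knockdown to Recovery the gain was 2.64 points for Cl.3, 4.42 points for Cl.6 and 3.43 points for Cl.9 (mean 3.50 ± 0.891 points, SD, n = 3, exact sign-flip permutation p = 0.25, the smallest that 3 populations allow). It was 21.2 points for R1 and 21.6 points for R2 (mean 21.4 ± 0.267, SD, n = 2, exact permutation p = 0.5, the smallest for 2 populations). The ranges of the shRNAs do not overlap. Without CpGs in UMRs or LMRs the mean gains were 6.80 and 34.8 points, and over the base pairs that were HMD in Cl.9 they were 8.78 and 34.0 points. As a share of the loss, Cl.3 regained 24.2%, Cl.6 25.5% and Cl.9 16.4%, whereas R1 regained 97.4% and R2 98.01%. In shared PMDs the regained shares were 29.4% (Cl.3), 30.8% (Cl.6) and 16.8% (Cl.9). Segments that were PMD in none regained 53.8%, 55.5% and 47.9%.

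Across all segments, edgeR's quasi-likelihood test with the population as a block called 468 of the 7291 members higher at Recovery than at Knockdown in shUHRF1 (6.42%, Benjamini-Hochberg adjusted p under 0.05) and 0 lower, where 35.7% of all segments were called higher and 0.00328% lower. At an unadjusted p under 0.05, 937 of the 7291 members were higher and 0 lower, against 14184 higher of all 30524 segments. The test called 6.89% of the segments that were PMD in all 5 populations and 93.2% of those that were PMD in none. The members called were mainly those that were mostly HMD in Cl.9: 372 of 785 tested (47.4%), against 4 of 3703 that were mostly UMR, 0 of 329 that were mostly LMR and 92 of 2474 without a majority. The median log2 change in the odds of methylation was 0.53 in the first of these sets and 0.23 in the second. In shDNMT1 7289 of the 7291 members were called higher, where 100% of all segments were (30512 of 30524, rounded), and the change in shUHRF1 was called smaller than that in shDNMT1 in 7247 members (99.4% of all segments were called so). The count in shUHRF1 rested on single populations: it was 0 without Cl.6, 14 without R1, 13 without R2, 1151 without Cl.3 and 1706 without Cl.9 (with 1 member lower), and 0 without the population block. Limma called 577. The numbering of the populations pairs the stages by cell line, and the shDNMT1 libraries were in the same fit, with a shared estimate of the spread. Why the count fell without R1 or R2 was not tested. The difference between the shRNAs was called in 1097 members without the block. How many of all segments were called under these alternatives was not counted, so the shifts cannot be said to be particular to the members.

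Within the members, methylation followed CpG density as is known for PMDs. Of the 2758757 CpGs in members, 67.4% were low-density CpGs (nearest CpG at least 20 bp away) and 19.4% were solo-WCGW. At Baseline low-density CpGs had an mC of 29.8% in Cl.9 and 34.4% to 35.9% in the others, and high-density CpGs had 59.6% in Cl.9 and 64.9% to 66.2% in the others. Solo-WCGW CpGs were lowest, at 16.9% in Cl.9 and 20.2% to 21.8% in the others. At Knockdown solo-WCGW CpGs in the members were at 11.7% in Cl.3, 9.62% in Cl.6, 4.73% in Cl.9, 8.20% in R1 and 8.01% in R2, and at Recovery at 13.4%, 11.9%, 6.43%, 19.6% and 19.6%. Cl.3 regained 23.1% of the loss at low-density CpGs and 30.4% at high-density CpGs. These shares were 22.7% and 31.0% for Cl.6, 14.8% and 19.9% for Cl.9, 96.4% and 97.6% for R1, and 96.8% and 98.01% for R2. In each clone the regained share was larger at high density, and Cl.9 was the lowest clone in both classes.

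**Figure D4:**
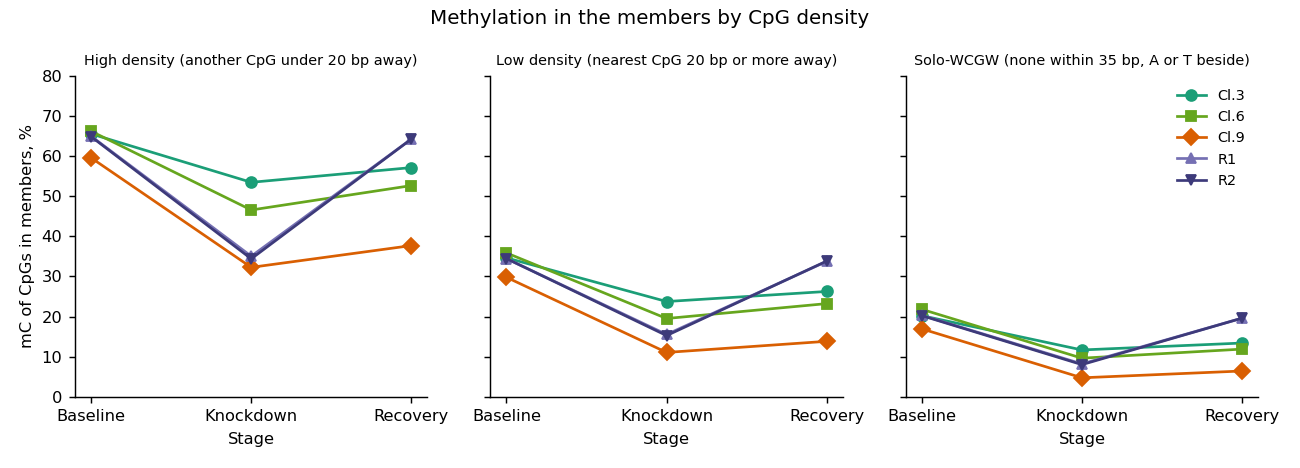
Lines join the mC (y axis, percent) of high-density, low-density and solo-WCGW CpGs of the members at Baseline, Knockdown and Recovery in each population. Solo-WCGW CpGs of Cl.9 go from 16.9% to 4.73% and 6.43%, and the bulk populations return to 19.6%.

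Single CpGs that each library covered by 5 reads or more (2239113, 81.2% of those in the members) were spread widely at Baseline. In Cl.9 49.8% of them had an mC under 30%, 21.2% between 30% and 70% and 29.1% above 70%, against 43.9% to 44.2%, 23.9% to 25.8% and 30.0% to 32.2% in the others. In shared PMDs 30.9% of the CpGs of Cl.9 were under 30% and 39.9% above 70%. At Recovery 71.6% of the members' CpGs were under 30% in Cl.9, 53.0% in Cl.3, 57.5% in Cl.6 and 45.0% and 44.9% in R1 and R2. The share above 70% was then 9.32% in Cl.9, 23.6% in Cl.3, 18.9% in Cl.6, and 29.2% in each bulk population.

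The members were poor in CpGs. They had 0.676 CpGs per 100 bp and a GC content of 38.3%, against 0.946 and 39.9% in shared PMDs and 1.13 and 41.8% in segments that were PMD in none (the 1494 Mb in segments with CpGs). Segments with like patterns were similarly poor, with 0.638 CpGs per 100 bp where PMD except in Cl.6, 0.684 where PMD in Cl.6, R1 and R2 only, and 0.733 where PMD except in Cl.3, so low density was not particular to the members. Members that were mostly UMR in Cl.9 were the poorest, with 0.623 CpGs per 100 bp, followed by those mostly HMD (0.737), mostly LMR (0.787) and without a majority (0.813). Among the segments that were PMD in all of Cl.3, Cl.6, R1 and R2, divided by CpG density into 5 sets of about equal number, the members made up 62.9%, 57.5%, 46.8%, 35.2% and 12.8% of the length from the least dense to the densest. In the least dense of these the mC of Cl.9 at Baseline was 40.4% and the mean of the others 45.7%, and in the densest 53.5% and 58.7%, so that the deficit of Cl.9 was of similar size while the share of members fell. The longer members were a large part of the length: the median was 32707 bp, and the 1021 members of at least 100 kb held 46.03% of it. At the length limit of the rule, the 204 members of 10 to 11 kb had a Baseline mC of 57.0% in Cl.9 and 60.4% in R1, and the 200 pieces of 9 to 10 kb that were left out had 62.6% and 64.998%. In all, 3944 shorter pieces holding 13.7 Mb were left out.

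The members lay within PMDs of the other populations and mostly next to stretches that were PMD in Cl.9 too. Of the 14682 sides of the members, 61.5% touched a segment that was PMD in all 5 populations and 0.218% one that was PMD in none. Of 6587 blocks of at least 10 kb that were PMD in all of Cl.3, Cl.6, R1 and R2, 4043 held at least 1 member, and 1589 of these (71.9 Mb) held no base pair that was PMD in Cl.9. Across the 2421 members of at least 50 kb, mC was lower inside than in the flanks in every library. In R1 at Baseline it was 45.7% in the 5 kb before the start of the member and 39.1% in the second twentieth of its length, and in Cl.9 40.4% and 33.6%. At Recovery it was 22.3% and 17.9% in Cl.9 and 45.2% and 38.5% in R1.

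**Figure D5:**
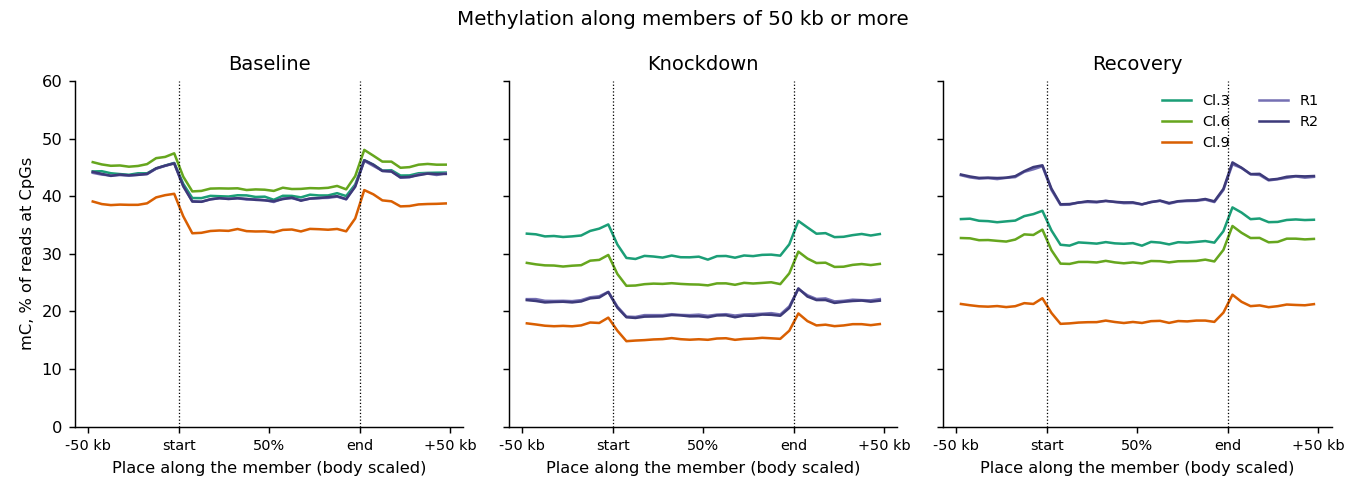
Lines show the mC (y axis, percent of reads at CpGs) of the 5 populations from 50 kb before to 50 kb after the 2421 members of at least 50 kb, with each member's body scaled to the same width, at the 3 stages. The step down into the member is seen in every population, and at Baseline went from 45.7% to 39.1% in R1 and from 40.4% to 33.6% in Cl.9.

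The members took up different shares of the chromosomes. They covered 29.01% of chromosome 18, 22.6% of chromosome 11 and 21.2% of chromosome 21, and 5.15% of chromosome 22 and 7.04% of chromosome 17. As a share of the length that was PMD in the other populations, they were 61.9% on chromosome 3 and 60.3% on chromosome 11, and 19.8% on chromosome 22 and 26.2% on chromosome 13. Rules that leave out 1 other population gave far less: 902 pieces (22.6 Mb) were PMD except in Cl.3, 683 (22.8 Mb) except in Cl.6, 19 except in R1 and 43 except in R2. R1 and R2 are labelled as replicates of bulk shDNMT1 cells, so their counts are not like those of separate clones. A further 3006 pieces (101 Mb) were PMD in Cl.6, R1 and R2 only, so there Cl.3 lacked the call together with Cl.9. In these the mC of Cl.9 was 41.5%, 19.1% and 23.2% at the 3 stages. The total PMD length at Baseline was 578 Mb in Cl.9 and 983 to 1194 Mb in the others, and 308 pieces (10.49 Mb) were PMD in Cl.9 only.

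Few genes begin in the members. The 5' ends of 618 of the 19111 autosomal protein-coding genes of GENCODE v44 lay in them (3.23%), which is 1.51 per Mb, against 2.04 per Mb in shared PMDs and 9.39 per Mb in segments that were PMD in none (over 1611 Mb, with segments that hold no CpG included). Protein-coding genes covered 30.5% of the member length and 43.4% of the autosomes, 1497 genes overlapped a member, and 4326 of the 7341 members overlapped none. The gene families with many tissue-restricted members were present to different degrees, and the lists were chosen with earlier results of these data known. Of 412 olfactory receptor genes, which encode odorant receptors of the nose, 146 had their 5' end in a member (35.4%) and 80 in a shared PMD. Of 33 non-clustered protocadherins and cadherins (cell adhesion proteins) 7 did (21.2%), of 41 contactins, neurexins and their partners at synapses 7 (17.1%), of 149 keratins and keratin-associated proteins 22 (14.8%), of 41 glutamate and GABA receptor genes 5 (12.2%), of 93 potassium channel genes 9 (9.68%), and of 77 genes of glucuronidation and cytochrome P450 6 (7.79%). Of 496 C2H2 zinc finger genes 32 did (6.45%), of 53 clustered protocadherins 3 (5.66%), and of 24 bitter taste receptors 1 (4.17%). The serpins (34 genes), HOX genes (39), ribosomal protein genes (77) and genes of the DNA methylation machinery (15) had none, and of 20 genes of colon epithelium identity 1 did. Shared PMDs held a larger share than the members of the contactins, neurexins and partners (21.95%), the glucuronidation and cytochrome P450 genes (14.3%), the C2H2 zinc finger genes (9.27%) and the serpins (8.82%). The same held for the HOX genes (2.56%) and the ribosomal protein genes (1.30%). Shared PMDs held a smaller share of the olfactory receptors (19.4%) and of the non-clustered protocadherins and cadherins (6.06%). So they did of the potassium channels (8.60%), the clustered protocadherins (1.89%), the bitter taste receptors (0%) and the colon epithelium identity genes (0%). The keratins and the glutamate and GABA receptors had equal shares in both sets. These counts are descriptions, beside the 3.23% of all genes in members and 5.07% in shared PMDs.

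Promoters were read over the 1 kb before and 100 bp after the 5' end. Of the 579 promoters wholly inside a member, 443 passed the same minimum of 5 CpGs and 50 reads per library. Their median mC at Baseline was 61.8% in Cl.3, 60.8% in Cl.6, 54.3% in Cl.9, 60.4% in R1 and 60.6% in R2. At Knockdown the medians were 47.3%, 40.3%, 25.3%, 28.8% and 28.3%, and at Recovery 51.4%, 44.4%, 29.4%, 60.2% and 59.0%. Cl.9 was above all 4 of the others in 52 promoters at Baseline (11.7%) against 9.37% of all 17850 autosomal promoters with enough CpGs and reads, and below in 224 (50.6%) against 33.8%. At Knockdown it was above in 7 (1.58%) against 4.67% and below in 228 (51.5%) against 19%. At Recovery Cl.9 was below all 4 of the others in 395 of the 443 (89.2%) and above all 4 in 1, where 72.7% and 3% of all promoters were below and above. Promoters with an mC under 10% numbered 26 in Cl.9 at Baseline, 86 at Knockdown and 72 at Recovery. They numbered 12, 28 and 25 in Cl.3, 14, 36 and 30 in Cl.6, 9, 46 and 9 in R1 and 8, 46 and 10 in R2. How many of all 17850 promoters were under 10% was not counted, so these numbers only describe the 443. Without expression data analysed here, nothing was measured of the genes' activity.

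Outside chromosome 8, the promoter with the largest difference in favour of Cl.9 at Recovery was that of LCE5A, a gene of the cornified envelope of skin. It had 79.3%, 43.5% and 61.5% in Cl.9 at the 3 stages, 56.2%, 42.5% and 38.2% in Cl.3, 68.8%, 41.0% and 37.5% in Cl.6, 68.2%, 32.3% and 63.1% in R1 and 68.5%, 25.4% and 70.7% in R2. Cl.9 was thus above the clones and below the bulk populations at Recovery. The next was that of HEY2, a transcriptional repressor downstream of Notch, with 51 CpGs and 65.5%, 45.0% and 60.7% in Cl.9, 52.2%, 47.0% and 44.4% in Cl.3, 57.5%, 42.7% and 41.4% in Cl.6 and 60.3%, 25.5% and 65.01% in R1. In KCNJ10, an inwardly rectifying potassium channel gene with 64 CpGs in its promoter, Cl.9 had 76.7%, 52.6% and 59.3%, Cl.3 69.9%, 48.1% and 40.9%, and R1 62.3%, 26.6% and 58.2%. At Recovery R2 was above Cl.9 there, at 62.6%, and Cl.6 was close to it, at 58.6%. The other 7 of the 10 highest were the promoters of OR51V1, OR4C11, ZNF502, RHOJ, KRTAP22-1, RAB6D and CDH8, whose differences from the mean of the others were 5.04 points to -0.117 points. All but that of CDH8 were above 0, and 4 of the 10 highest were below 2 points.

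Named next were the 5 promoters outside chromosome 8 in which Cl.9 lay furthest below the mean of the others at Recovery. They were those of MPEG1 (a pore-forming protein of macrophages, -45.4 points), OR10H4 (an olfactory receptor, -43.9), FYB2 (-43.4), CYRIA (a regulator of actin, -41.3) and CES1 (a carboxylesterase of the liver, -40.2). At OR10H4 Cl.9 had 94.8% at Baseline, the highest of the 5, and 32.2% and 33.5% at Knockdown and Recovery. Cl.3 had 90.1%, 67.4% and 66.7% there, and R1 88.7%, 34.6% and 88.3%. At MPEG1 Cl.9 had 55.5%, 14.9% and 19.6%, Cl.3 78.3%, 53.4% and 66.7%, and R1 77.0%, 24.0% and 64.1%. These promoters were chosen by their Recovery values and get no test.

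For the gene families, the olfactory receptor promoters with values (76) had a median mC of 36.1% in Cl.9 at Baseline, 13.8% at Knockdown and 17.1% at Recovery, against 45.0%, 32.8% and 35.2% in Cl.3 and 41.5%, 18.2% and 43.6% in R1. The C2H2 zinc finger promoters (25) were more methylated, with 71.6%, 43.1% and 49.0% in Cl.9, 79.9%, 68.6% and 72.2% in Cl.3 and 76.0%, 40.2% and 74.2% in R1. Among the receptors of inhibitory transmission, GABRB1 had 87.9%, 69.1% and 72.0% in Cl.9, 83.6%, 76.9% and 83.9% in Cl.3 and 87.7%, 56.3% and 86.5% in R1. The axon guidance receptor gene ROBO2, which lay in members over 990796 bp, had 80.3%, 65.6% and 62.7% at its promoter in Cl.9, 81.1%, 73.6% and 76.4% in Cl.3 and 78.4%, 53.2% and 79.6% in R1. The cadherin gene CDH10 had 48.2%, 29.6% and 34.8% in Cl.9, 57.6%, 48.6% and 46.3% in Cl.3 and 67.4%, 30.5% and 61.3% in R1. The potassium channel gene KCNJ6 had 39.0%, 20.4% and 28.4% in Cl.9, 56.9%, 56.2% and 55.0% in Cl.3 and 63.7%, 26.7% and 57.6% in R1. The skin keratin-associated gene KRTAP24-1 was low throughout, with 6.52%, 4.55% and 5.56% in Cl.9 and 22.4%, 7.20% and 20.4% in R1. CEACAM5, a colon epithelial adhesion protein gene and the only one of its list, had 34.2%, 4.91% and 12.2% in Cl.9, 40.9%, 28.2% and 32.0% in Cl.3 and 43.5%, 17.5% and 46.7% in R1.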

How the data were processed

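Per the study's methods and labels, the authors aligned WGBS reads to hg38 and deposited, for each CpG cytosine, the counts of methylated reads and of all reads, with 1 list of domains (PMD, HMD, UMR, LMR) per library; bedtools 2.25.0 is named in the submitters' processing notes. PMDs, UMRs and LMRs were called with MethylSeekR, and HMDs were the remaining stretches above a minimum average mC, so that stretches in no class were those below it. The MethylSeekR settings used for each library are not given in the sources used here. All 30 deposited count columns (15 libraries) were used, over 27852739 autosomal positions, and 0 columns of per-sample values were left unused. Total reads at CpGs were 309268341 to 577680690 per library. Errors of counting alone were small beside the spread between populations.

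The autosomes were cut into segments of constant Baseline PMD pattern, and the members and the gene lists were chosen with earlier results of these data known. Baseline libraries chose the members, so Baseline levels and changes from Baseline have no test. Counts were summed per segment (minimum 5 CpGs, and 50 reads per library) and tested with edgeR 4.0.16 (quasi-likelihood, Benjamini-Hochberg over all segments, R 4.3.3), with the population as a block, since same-numbered libraries are 1 clone or population at 3 stages. Limma 3.58.1 was an alternative. The scripts were tested on simulated data. Pooled levels were compared by exact two-sided permutation (Python 3.11.15, scipy 1.17.1). Libraries of 1 group are separate clones or populations with 1 library per stage, so p-values measure the spread between them.

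Named were the 10 longest members, the 5 highest and 5 lowest differences of Cl.9 from the others at Recovery among members of at least 100 kb, the 10 highest and 5 lowest promoters by the same measure, and up to 4 genes per list by overlap. The promoters and list genes were named outside chromosome 8, which entered every count. Piece length, class in Cl.9, reads, CpGs used, block, tool and left-out populations were varied. The high-density CpG of the longest member that the same rule names is not reported here.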

Additional observations from a re-analysis of the deposited data

Results flagged for a closer look

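The change from Knockdown to Recovery differed between the 2 shRNAs: edgeR's interaction test called it smaller in shUHRF1 than in shDNMT1 in 7247 of the 7291 members tested (adjusted p under 0.05), and in 99.4% of all segments. The shRNA and growth as clones or in bulk cannot be told apart. Groups of 2 or 3 libraries were not tested for a library far from the others.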

How the results depend on the processing

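Of 120 alternative values 2 changed direction, 16 moved in size beyond a set limit, and calls or counts of calls were lost in 5 and gained in 2. The other 95 were taken as the same, but a tested difference was taken as changed only when its sign turned. Keeping only base pairs that were HMD in Cl.9 (28.1 Mb, 848 pieces) turned the difference of Cl.9 from the others to 10.6 points at Baseline and 0.902 points at Knockdown, moved Knockdown minus Baseline to -24.3 points in shUHRF1 and -35.3 points in shDNMT1, and moved the share in PMDs in Cl.9 to 98.9% at Knockdown and 90.1% at Recovery. With it, Recovery minus Knockdown was 8.78 points in shUHRF1 and 34.0 points in shDNMT1, the difference of Cl.9 at Recovery was -7.47 points (exact permutation p = 0.6), and its scaled difference at Knockdown was 0.304. Leaving out CpGs in UMRs or LMRs of any Baseline list kept 31.2% of the members' CpGs. The difference of Cl.9 was then -1.29 points at Baseline, -9.29 points at Knockdown and -22.1 points at Recovery. Knockdown minus Baseline was -24.6 and -36.1 points, Recovery minus Knockdown was 6.80 and 34.8 points, and the scaled difference of Cl.9 at Recovery was 0.122. Leaving out members that were mostly HMD in Cl.9, chosen after seeing the data, gave a Baseline difference of -6.56 points. With pieces of at least 25 kb the share in PMDs in Cl.9 was 7.92% and 7.58%, and Knockdown minus Baseline in shDNMT1 was -21.1 points. With 50 kb these were 6.32%, 5.66% and -20.3 points, and with the mean of single CpGs the last was -23.1 points. Without the population as replicate block, edgeR called 0 members in shUHRF1 and 1097 for the difference between shRNAs. Leaving out 1 population gave 0 to 1706 members in shUHRF1, with 0 without Cl.6 and 1706 without Cl.9. The block changed no other call by over 1.5 times. How many of all segments these alternatives called was not counted, and the causes were not tested. The depth leaves pooled levels precise, and the numbers of clones and populations limit every test.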
